A study of Mus musculus with 6 samples.

Results

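The genes of the elastic fibre were followed in the nuclei of mouse cortical lesions after photothrombotic (PT) injury, in which light and an injected dye close cortical vessels. The 10 genes, of 32285 in the count tables, were Eln, Fbn1, Fbn2, Fbln1, Fbln2, Fbln5, Efemp1, Efemp2, Mfap4 and Emilin1. They are genes of 1 structure, chosen by the large deficit of Eln UMIs in fibroblasts of lesions treated with ADWA11, and the question was whether the other genes of the fibre were lower with it. The values of Eln under ADWA11 therefore describe the starting point and support nothing. The 6 single-nucleus libraries came from lesions taken 7 or 21 days post injury (dpi), and every group had PT injury. Ctrl mice were wild type (WT) with no treatment named in the labels. ADWA11 mice were WT and received an antibody against integrin αvβ8 by intraperitoneal injection from the day of injury and then weekly. Tgfbr2-cKO mice carried Col1a2(creER) with Tgfbr2(flox), so that tamoxifen deletes the type II TGFβ receptor in cells in which the Col1a2 promoter is active, which are mostly but not only fibroblasts. The labels give no age. Each group was 1 library, made from 1 male and 1 female mouse processed together, so no group had a replicate library and every difference is between 2 libraries. Sex-linked transcripts separate the mice of a library in part, since some nuclei could not be called, and each sex is 1 mouse. No test was run.

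An elastic fibre has a core of elastin, the cross-linked polymer of the protein encoded by Eln, laid down on a scaffold of microfibrils made of the fibrillins. Fibulins and other small glycoproteins bring elastin, the scaffold and the crosslinking enzymes together, and all parts are secreted. Microfibrils also hold latent TGFβ through its binding proteins, and integrin αvβ8 is a receptor that releases TGFβ from its latent form. In the brain such fibres are known from the walls of arteries and from the meninges, the membranes over the cortex where most resting brain fibroblasts lie.

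The libraries held 67360 barcodes, of which 61917 passed the filter, and between 64798965 and 140310354 unique molecular identifiers (UMIs) each, where a UMI is a molecule counted once. Clusters named fibroblast-like held 13303 nuclei after removal of doublet-rich sub-clusters: 1962 and 4471 in Ctrl, 2529 and 3121 under ADWA11, and 330 and 890 in Tgfbr2-cKO, where the earlier day stands first. The Tgfbr2-cKO library at 7 dpi stood apart, with 4780 neurons among its nuclei against 28 to 911 in the other 5, and as the only library of its group it cannot be set aside. All 6 markers that named the fibroblasts were detected in each library's fibroblasts. Their summed level was 7681, 5801 and 3997 CPM (counts per 1e6 UMIs of the same nuclei) at 7 dpi in Ctrl, ADWA11 and Tgfbr2-cKO, and 6372, 5198 and 1623 CPM at 21 dpi. Pairs of libraries shared 21 to 61 barcodes. Markers of mural cells, the contractile cells around vessels, summed to 220.5 to 318 CPM in fibroblasts against 5629 to 6338 CPM in mural nuclei. Summed markers of astrocytes in fibroblast nuclei were at 158 to 426 CPM, and those of neurons at 1.76 to 7.12 CPM in Ctrl and ADWA11 but at 166 and 57.9 CPM in Tgfbr2-cKO at 7 and 21 dpi. The part of these other transcripts in the results below was not tested. Tgfbr2 itself was at 315, 243 and 234 CPM in fibroblasts at 7 dpi and at 219.9, 189.9 and 184 CPM at 21 dpi in the same order, but 3′ tags do not read the deleted exons and so do not check the deletion.

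All intervals below are exact 95% limits and cover counting error only. A gene is said to differ in a comparison where its CPM differed at least 1.5-fold and it had at least 50 UMIs over both libraries. Because counts came from the 3′ ends of transcripts, a level is compared between cell types and libraries and never between genes.

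Fibroblasts held most UMIs of 7 of the 10 genes over the 6 libraries. The share of a gene's UMIs found in fibroblasts was 81.8% for Fbln1, 80.4% for Efemp1, 76.6% for Eln, 71.9% for Mfap4, 71.7% for Fbn1, 63.1% for Emilin1 and 51.3% for Fbn2. The other 3 were spread more widely. Of the Fbln5 UMIs, 43.0% were in fibroblasts and 16.9% in endothelial nuclei. Of the Fbln2 UMIs, 44.1% were in fibroblasts and 19.2% in neurons, and of the Efemp2 UMIs 43.9% were in fibroblasts and 17.7% in myeloid nuclei. Fbn2 had a second source, since 29.1% of its UMIs were in oligodendrocyte precursors, where it was measured at 464 (Ctrl), 548 (ADWA11) and 402 (Tgfbr2-cKO) CPM at 7 dpi. The corresponding levels at 21 dpi were 453, 428 and 252 CPM. The pooled shares hide differences between libraries. Of the Eln UMIs 69.9% to 82.7% lay in fibroblasts in 5 libraries but 28.1% under ADWA11 at 21 dpi. In Tgfbr2-cKO at 7 dpi, which held 4780 of the 6161 neurons, the share was 17.7% for Fbn1, 15.5% for Fbn2 and 29.9% for Emilin1. The more widely spread genes were lower still there, at 6.10% for Fbln2, 7.99% for Efemp2 and 10.8% for Fbln5. In Ctrl at 7 dpi the same 3 were at 71.5%, 48.8% and 46.3%. Mural nuclei, of which there were 465 in all, held between 0.126% (Efemp1) and 1.42% (Eln) of a gene's UMIs.

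**Figure D1:**
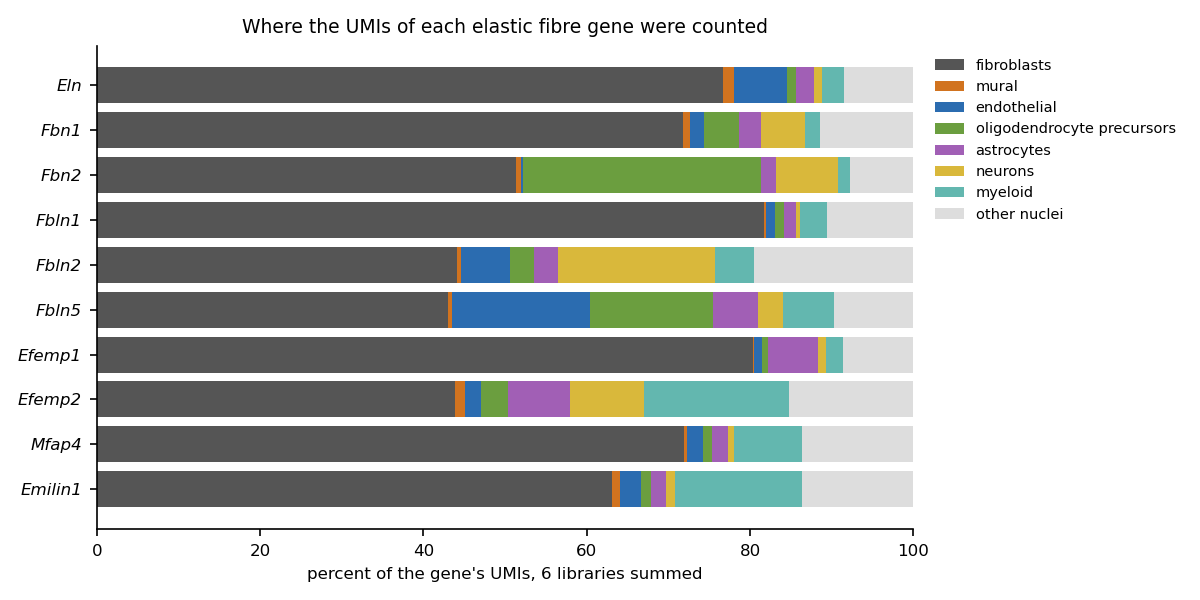
Share of each elastic fibre gene's UMIs (horizontal axis, percent of the gene's UMIs over the 6 libraries) by cell type, 1 bar per gene. Fibroblasts hold 81.8% of Fbln1 UMIs and 43.0% of Fbln5 UMIs, and Fbn2 has 29.1% of its UMIs in oligodendrocyte precursors.

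In fibroblasts under ADWA11 at 7 dpi, Eln, Fbn1, Fbln2 and Mfap4 were lower than in Ctrl, Fbln1 and Efemp1 were higher, and Fbn2, Fbln5, Efemp2 and Emilin1 stayed within 1.5-fold. At 21 dpi Eln, Fbn1 and Mfap4 were lower, Fbln1 and Efemp1 were again higher, and the other 5 stayed within 1.5-fold. The calls differed between the sexes. At 7 dpi Fbln1 was past 1.5-fold in male nuclei, at 428 CPM under ADWA11 and 214 CPM in Ctrl. It was under that fold in female nuclei, at 339 and 251 CPM. In female nuclei at 21 dpi Fbn1 (-0.58 on the log2 scale), Fbln1 (0.51) and Efemp1 (0.57) were under 1.5-fold, while Fbn2 (-0.94) and Fbln2 (-0.72, from 39 and 130 UMIs) were past it. In male nuclei of that day the same 5 genes as in all fibroblasts were past 1.5-fold, with Fbn1 at -0.92 and Fbn2 at 0.14. So over all fibroblasts 4 of 10 genes were lower and 2 higher at 7 dpi, where 5.91% of all 14789 genes with enough UMIs were lower and 12.5% higher. At 21 dpi 3 were lower and 2 higher, against 5.82% and 8.36% of 15829 genes. Eln, for which the list was made, is in each count of lower genes. The median of the other 9 genes was 0.00 on the log2 scale at 7 dpi and -0.13 at 21 dpi, beside 0.07 and 0.02 over all genes. In the libraries in which Eln was low, Fbln1 and Efemp1 thus lay above Ctrl over all fibroblasts. Counts of 2 higher genes of 10 are not far from the shares of all genes, so nothing is read from those counts.

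**Figure D2:**
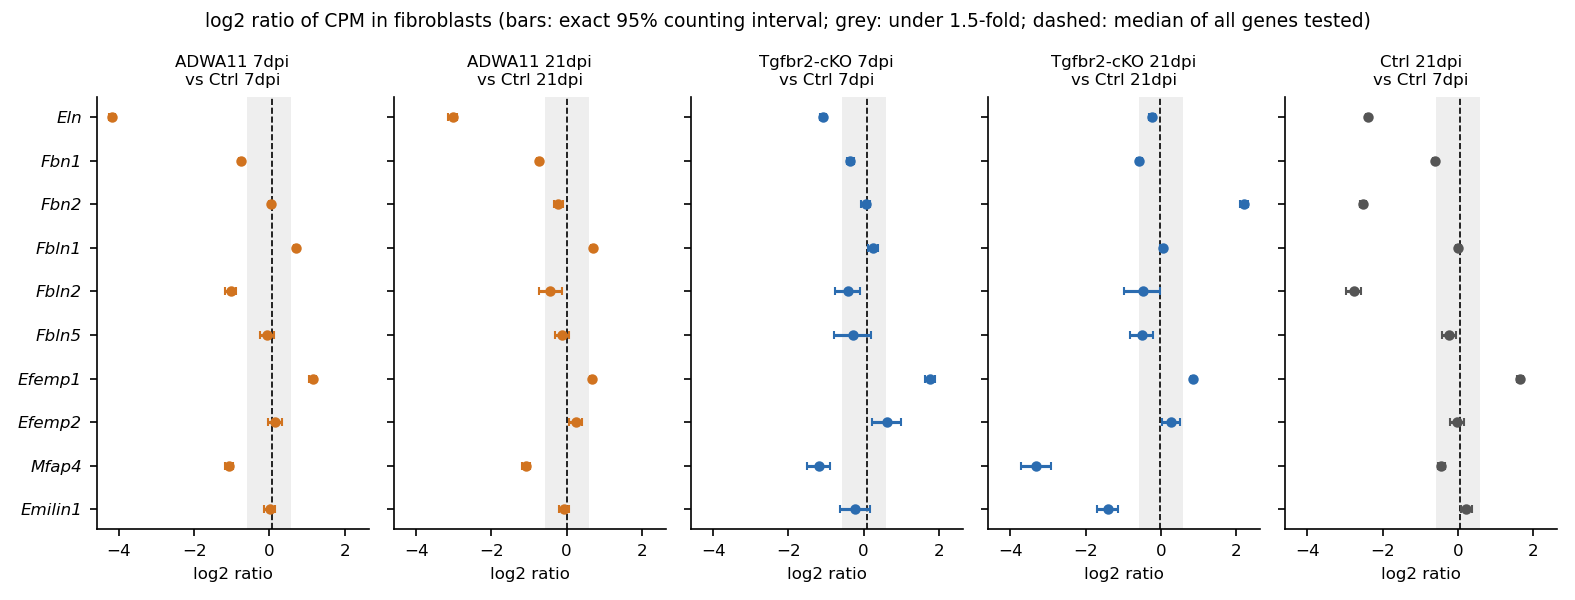
Log2 ratio of CPM in fibroblasts for the 10 genes (rows) in 5 comparisons of 2 libraries each (panels), with exact 95% counting intervals as bars, the range under 1.5-fold in grey and the median of all genes tested as a dashed line. Eln is at -4.19 and -3.02 under ADWA11 while Fbln1 and Efemp1 lie right of the grey range on both days.

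Eln encodes tropoelastin, the monomer of the core (chr5:134702593-134747323, minus strand, GRCm38; Gm30003 overlaps it on the opposite strand). Its level in fibroblasts was 1078 CPM (1062 to 1093) in Ctrl, 59.2 CPM (56.2 to 62.2) under ADWA11 and 510.3 CPM (480.2 to 542) in Tgfbr2-cKO at 7 dpi. On day 21 it was 204 CPM (199 to 209), 25.1 CPM (23.2 to 27.2) and 174 CPM (165 to 184) in the same order. Both ADWA11 libraries were the lowest of their day, and none of the 6 intervals overlapped another. The log2 ratio to Ctrl under ADWA11 was -4.19 (-4.26 to -4.11) at 7 dpi and -3.02 (-3.14 to -2.90) at 21 dpi. In Tgfbr2-cKO it was -1.08 (-1.17 to -0.99) and -0.23 (-0.31 to -0.14). The last value was opposite in sign, at 1.46, over the 3 of 8 sub-clusters with enough nuclei in both libraries, weighted as in Ctrl. The ADWA11 and Tgfbr2-cKO ratios share the Ctrl libraries.

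The Tgfbr2-cKO values of Eln rested on few nuclei. The 5 nuclei richest in Eln held 47.4% of the fibroblast Eln UMIs in Tgfbr2-cKO at 7 dpi and 65.8% at 21 dpi. The same share was 7.29% and 9.80% for Ctrl, and 13.1% and 20.4% for ADWA11. These shares are not over equal fractions, since 5 nuclei are a larger part of the 330 and 890 fibroblasts of Tgfbr2-cKO than of the 1962 and 4471 of Ctrl, so they are not compared. All 5 at 21 dpi were called male, none was called a doublet, and together they held 905 of 1375 UMIs. Nuclei called female in that library had 34.0 CPM and nuclei called male 336 CPM, whereas in the Ctrl library of that day the same calls gave 201 and 227 CPM. The sign at 21 dpi therefore differed by sex, with ratios of -2.57 in female and 0.57 in male nuclei. Under ADWA11 the 2 sexes lay closer, at 54.9 and 73.1 CPM at 7 dpi and 23.4 and 26.2 CPM at 21 dpi.

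The share of nuclei with an Eln UMI followed the same order. After each nucleus was thinned to 2000 UMIs, it was 39.1% (36.9 to 41.4) of Ctrl fibroblasts, 8.03% (6.99 to 9.17) under ADWA11 and 19.3% (15.1 to 24.1) in Tgfbr2-cKO at 7 dpi, by the Clopper-Pearson method. At 21 dpi the shares were 13.6%, 3.84% and 6.29%. Unthinned shares on the earlier day were 59.9%, 23.1% and 27.6%, and on the later day 24.5%, 10.2% and 11.1%. The thinning left out 19 to 253 shallower fibroblasts per library. T cells, which do not make elastin, had a UMI in 11.2% of thinned nuclei in Ctrl and 0 of 149 under ADWA11 at 7 dpi, with an exact upper limit of 2.45%. At 21 dpi T cells gave 5.53% (Ctrl), 0.367% (ADWA11) and 0.935% (Tgfbr2-cKO), and the 8 Tgfbr2-cKO T cells deep enough at 7 dpi had none. The median UMI count at 7 dpi was 7924 in Ctrl fibroblasts and 2742 in Ctrl T cells. The level in T cells was highest in Ctrl at 7 dpi, at 137 CPM beside 1078 CPM in fibroblasts. Myeloid nuclei of that library had 29.2 CPM, so these low levels, to which free RNA can add, differed between cell types. The shares in fibroblasts lay above this background in the 5 libraries with more than 8 such T cells.

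Fbn1 and Fbn2 encode fibrillins, which polymerise into the microfibril scaffold. Fbn1 (chr2:125300594-125507993, minus strand; Gm9913 overlaps it on the opposite strand) was at 595 CPM (583 to 607) in Ctrl fibroblasts, 352 CPM (345 to 359) under ADWA11 and 465 CPM (437 to 495) in Tgfbr2-cKO at 7 dpi, and at 387 (380.3 to 394), 233 (227 to 239) and 261 (249.7 to 272) CPM at 21 dpi. Ctrl was the highest library on each day and ADWA11 the lowest. The log2 ratios to Ctrl were -0.76 (-0.80 to -0.72) and -0.73 (-0.78 to -0.69) under ADWA11 and -0.36 (-0.45 to -0.26) and -0.57 (-0.64 to -0.50) in Tgfbr2-cKO, the last of these just short of 1.5-fold. Fbn2, the fibrillin known mainly from development, was within 1.5-fold in the 3 libraries at 7 dpi, at 288 (280.2 to 297) CPM in Ctrl, with log2 ratios of 0.03 (-0.02 to 0.08) under ADWA11 and 0.06 (-0.06 to 0.18) in Tgfbr2-cKO. By 21 dpi it was at 50.1 (47.7 to 52.6) and 43.1 (40.5 to 45.8) CPM in Ctrl and ADWA11 and at 232 (221 to 242) CPM in Tgfbr2-cKO, a log2 ratio of 2.21 (2.11 to 2.31). In that library 81.3% of the fibroblast Fbn2 UMIs came from an unnamed sub-cluster led by Gabrg3 and Ebf3, which held 312 nuclei there and none in Ctrl. Over the 3 sub-clusters with enough nuclei in both libraries, weighted as in Ctrl, the Fbn2 ratio was 0.68.

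Mfap4 and Emilin1 encode glycoproteins of the fibre surface, of which MFAP4 binds microfibrils and elastin and EMILIN1 lies where elastin and microfibrils meet. Mfap4 (chr11:61485431-61488900, plus strand; Mapk7 overlaps it on the opposite strand) was at 99.0 (94.3 to 104) CPM in Ctrl, 47.3 CPM under ADWA11 and 43.2 (34.8 to 53.0) CPM in Tgfbr2-cKO at 7 dpi. By 21 dpi it was at 72.8 (69.9 to 75.8), 34.5 (32.2 to 37.0) and 7.35 (5.58 to 9.51) CPM. Of the 10 genes only Mfap4, always lower, and Efemp1, always higher, were past 1.5-fold in the same direction in all 4 comparisons with Ctrl over all fibroblasts. For Efemp1 this did not hold in female nuclei alone at 21 dpi, as given below. For Mfap4 it did not hold under ADWA11 at 21 dpi in the largest fibroblast sub-cluster of that library, also given below. For Mfap4 these were log2 ratios of -1.07 (-1.18 to -0.96) and -1.08 (-1.19 to -0.96) under ADWA11 and -1.20 (-1.52 to -0.89) and -3.31 (-3.71 to -2.93) in Tgfbr2-cKO. The last ratio was -1.21 over the 3 of 8 sub-clusters with enough nuclei in both libraries, weighted as in Ctrl, which hold 62.4% of the Ctrl and 58.2% of the Tgfbr2-cKO fibroblast UMIs. Emilin1 (chr5:30913402-30921277, plus strand) was flat across Ctrl and ADWA11, at 34.8 (32.0 to 37.8) and 34.9 (32.7 to 37.3) CPM at 7 dpi and 40.5 (38.3 to 42.8) and 38.6 (36.1 to 41.1) CPM at 21 dpi. Its ratios under ADWA11 were 0.00 (-0.15 to 0.16) and -0.07 (-0.19 to 0.05), so counting error left room for a difference of at most 0.19 on the log2 scale. In Tgfbr2-cKO it was at 29.9 (23.0 to 38.3) CPM at 7 dpi and at 15.2 (12.6 to 18.2) CPM at 21 dpi, the latter a log2 ratio of -1.41 (-1.69 to -1.14).

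**Figure D3:**
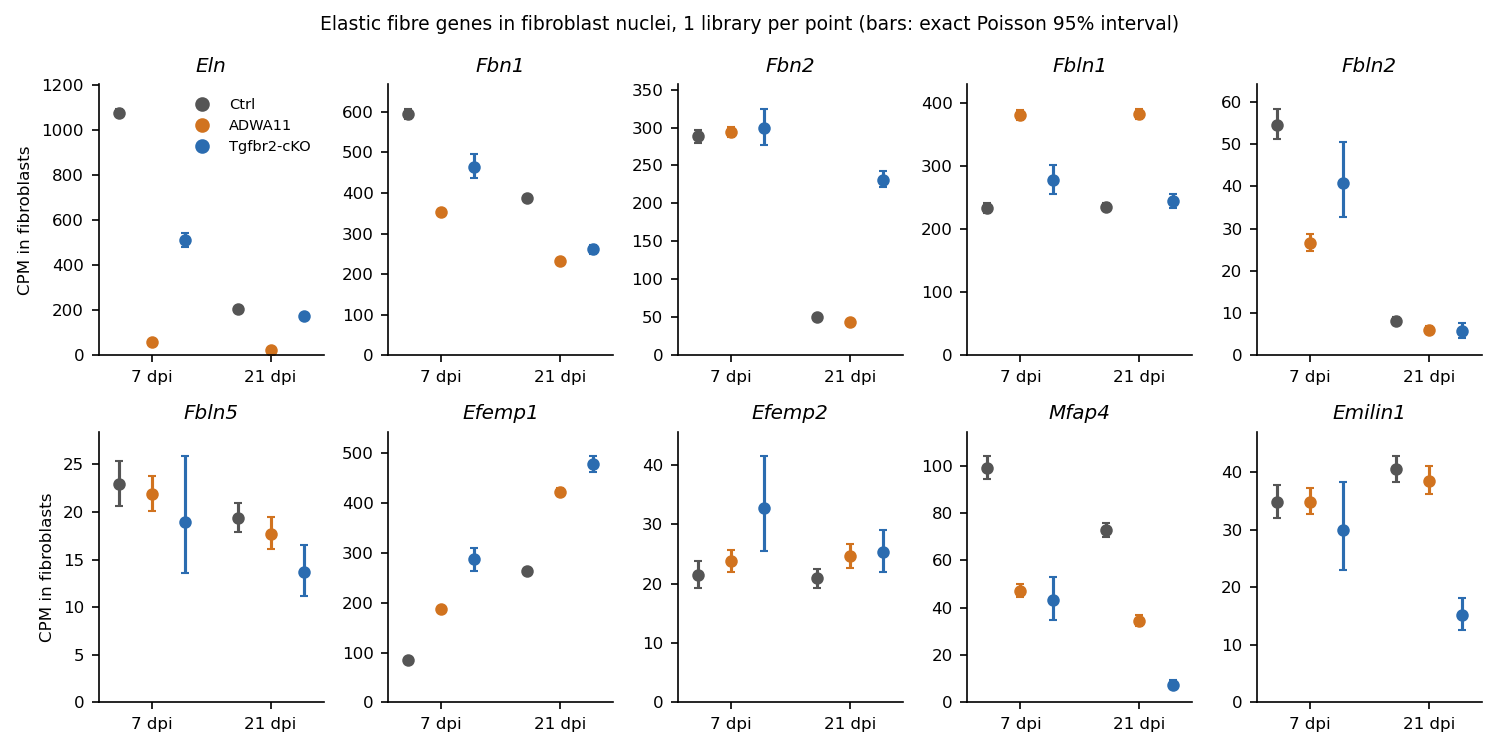
Level of each elastic fibre gene in fibroblast nuclei (vertical axes, CPM, each from 0) at 7 and 21 dpi in Ctrl, ADWA11 and Tgfbr2-cKO, 1 library per point with exact Poisson 95% intervals as bars. Mfap4 is below Ctrl in all 4 treated or deleted libraries, and Fbn2 at 21 dpi is at 232 CPM in Tgfbr2-cKO beside 50.1 CPM in Ctrl.

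The fibulins link elastin to microfibrils and basement membranes, and they divided in direction. Fibulin 1, encoded by Fbln1 (chr15:85205949-85286535, plus strand), is found with elastin and in basement membranes. It was at 234 (226 to 241) CPM in Ctrl and 381 (374 to 389) CPM under ADWA11 at 7 dpi, and at 236 (230.5 to 241) and 383 (375 to 391) CPM at 21 dpi. The 2 ADWA11 libraries had nearly the same level, above both Ctrl libraries, and the log2 ratios were 0.71 (0.65 to 0.76) and 0.70 (0.66 to 0.74). In Tgfbr2-cKO Fbln1 was within 1.5-fold of Ctrl, at 279 (257 to 302) and 245 (234 to 256) CPM. In female nuclei alone the ADWA11 ratios of Fbln1 were 0.43 and 0.51, under 1.5-fold, and in male nuclei 1.00 and 0.78, and with sub-cluster shares held at those of Ctrl the value at 21 dpi was 0.46.

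Efemp1 (chr11:28853204-28926743, plus strand) encodes fibulin 3, which is not needed for the elastin core in most tissues and is abundant in fascia and the retina. It was at 84.4 (80.0 to 88.9) CPM in Ctrl, 187 (181 to 192) CPM under ADWA11 and 287 (264 to 311) CPM in Tgfbr2-cKO at 7 dpi. At 21 dpi it was at 264 (259 to 269.8), 423 (414 to 431) and 478 (463 to 494) CPM, so that on each day Ctrl was the lowest library and Tgfbr2-cKO the highest. The log2 ratios were 1.14 (1.06 to 1.23) and 0.68 (0.64 to 0.72) under ADWA11 and 1.76 (1.62 to 1.90) and 0.86 (0.80 to 0.91) in Tgfbr2-cKO. In female nuclei alone the ratios at 21 dpi were 0.57 under ADWA11 and 0.39 in Tgfbr2-cKO, both under 1.5-fold, beside 0.87 and 1.33 in male nuclei. With sub-cluster shares held at those of Ctrl the values at 21 dpi were 0.42 under ADWA11 and, over the same 3 sub-clusters as for Mfap4, 0.31 in Tgfbr2-cKO, under 1.5-fold.

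Fbln1 and Efemp1 were the genes that stood opposite to Eln under ADWA11 on both days, so the bases before their first annotated starts are shown, from the RefSeq annotation of GRCm38.p6. The Fbln1 window is chr15:85205699-85205948 and the Efemp1 window is chr11:28852955-28853203, both on the plus strand and before the first exon of the gene. The Efemp1 window is 249 bases long because its last base, which lay in an annotated exon, was left out. Capitals mark the core of the element bound by SMAD proteins, the factors that TGFβ receptors activate (CAGAC, or GTCTG on the other strand). They also mark TGANTCA, where N is any base, a looser pattern than the AP-1 element. The TGAATCA marked for Efemp1 matches this pattern and is not called an AP-1 element.
Fbln1: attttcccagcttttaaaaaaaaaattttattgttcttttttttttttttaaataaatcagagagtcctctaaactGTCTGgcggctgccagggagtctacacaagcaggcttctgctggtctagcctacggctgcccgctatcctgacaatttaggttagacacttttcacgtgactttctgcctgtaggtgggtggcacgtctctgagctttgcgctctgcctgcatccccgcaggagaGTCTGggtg
Efemp1: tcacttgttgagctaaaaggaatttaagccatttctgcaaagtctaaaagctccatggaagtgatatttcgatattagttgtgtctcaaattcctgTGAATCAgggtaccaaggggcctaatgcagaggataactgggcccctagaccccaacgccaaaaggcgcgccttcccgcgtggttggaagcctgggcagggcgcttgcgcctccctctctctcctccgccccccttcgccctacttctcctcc
The Fbln1 window has 2 CAGAC cores on the minus strand and no TGANTCA, and the Efemp1 window has 1 TGANTCA and no CAGAC core. On either strand CAGAC was in 42.2% and TGANTCA in 6.75% of the 32851 promoters of 250 bases in the same table, and the motifs do not overlap in these windows. Of the 10 genes 7 matched a promoter by symbol. In the other 5 of these the windows before the first starts held 2 CAGAC cores for Efemp2 and Emilin1 and 0 for Fbn1, Fbln2 and Fbln5, while that before a second Fbln5 start held 2, and none held TGANTCA. The windows of Fbn1, Fbln2 and Emilin1 lay wholly in annotated exons, so they are not sequence before the gene. A match of letters is a description of the window, and no binding was measured.

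The other 3 fibulins were measured at lower depth. Fbln2 (chr6:91212455-91272540, plus strand), whose product binds fibrillin and elastin, was at 54.6 (51.1 to 58.3) CPM in Ctrl, 26.7 (24.7 to 28.8) CPM under ADWA11 and 40.8 (32.7 to 50.4) CPM in Tgfbr2-cKO at 7 dpi, with log2 ratios of -1.03 (-1.18 to -0.89) and -0.42 (-0.76 to -0.10). At 21 dpi all 3 libraries were low, at 7.98 (7.03 to 9.03), 5.91 (4.98 to 6.95) and 5.71 (4.16 to 7.63) CPM. Fbln5 (chr12:101746565-101819055, minus strand) and Efemp2 (chr19:5473954-5482517, plus strand; Mus81 overlaps it on the opposite strand) encode fibulins 5 and 4, which are needed to assemble elastin, fibulin 4 by bringing lysyl oxidase to it. Fbln5 was at 22.9 (20.7 to 25.4), 21.9 (20.1 to 23.8) and 19.0 (13.6 to 25.9) CPM at 7 dpi and at 19.4 (17.9 to 21.0), 17.7 (16.1 to 19.5) and 13.7 (11.2 to 16.5) CPM at 21 dpi in the order Ctrl, ADWA11 and Tgfbr2-cKO. The ADWA11 ratios of Fbln5 were -0.07 (-0.26 to 0.12) and -0.13 (-0.31 to 0.05), and neither interval reached 1.5-fold. Efemp2 was at 21.4 (19.3 to 23.8), 23.7 (21.9 to 25.7) and 32.8 (25.5 to 41.5) CPM at 7 dpi and at 20.9 (19.3 to 22.6), 24.7 (22.7 to 26.7) and 25.4 (22.0 to 29.1) CPM at 21 dpi. Its ratio in Tgfbr2-cKO at 7 dpi, 0.61 (0.22 to 0.99), was just past 1.5-fold and its interval reached well below that fold. Under ADWA11 it was at 0.15 (-0.04 to 0.34) and 0.24 (0.08 to 0.40). Over all ADWA11 fibroblasts, in which Eln was lowest, fibulins 4 and 5 thus stayed under 1.5-fold, intervals included. Efemp2 was not always above background. After thinning it was found in 4.55% (3.94 to 5.23) of fibroblasts and 4.02% (1.75 to 7.77) of T cells in Ctrl at 21 dpi. In Ctrl at 7 dpi these shares were 4.06% and 0.8%. The part of free RNA in the Efemp2 ratios was not tested. Other assembly genes, and Efemp2 in proliferating-like nuclei, were past 1.5-fold, as given below. So were all 9 members with enough UMIs in the few late-like nuclei of ADWA11 at 21 dpi, fibulin 4 or 5 or both among them.

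Fibroblast sub-clusters were made without any gene of these lists. Of 8 sub-clusters, 6 were named from their markers: a myofibroblast-like one led by Spock3 and Has2, a second myofibroblast-like one led by Caln1 and Tnn, and leptomeningeal-like, arachnoid-like, late-like and proliferating-like ones. The other 2, led by Slc47a2 and by Ebf3, stayed unnamed. In Ctrl at 7 dpi the Spock3-led myofibroblast-like nuclei were 54.7% of fibroblasts and held 79.2% of their Eln UMIs. In Ctrl at 21 dpi late-like nuclei were 23.2% of fibroblasts and held 80.7% of the Eln UMIs. The nuclei that carried Eln in Ctrl were not equally frequent in the other groups. Late-like nuclei at 21 dpi numbered 1038 in Ctrl but 30 with ADWA11 and 0 with Tgfbr2 deleted, while Spock3-led nuclei at 7 dpi numbered 1074, 1579 and 130 in that order.

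Within sub-clusters Eln was measured as follows, again as a description of the gene that chose the list. In Spock3-led myofibroblast-like nuclei at 7 dpi it was at 1471 (1447 to 1495) CPM in Ctrl, 56.7 (53.1 to 60.6) CPM under ADWA11 and 546 (499 to 595) CPM in Tgfbr2-cKO. Of the 505 UMIs behind that Tgfbr2-cKO value 3 of 130 nuclei held 169, 76 and 68, which its counting interval does not cover. In leptomeningeal-like nuclei the same libraries gave 579 (555 to 605), 79.8 (71.8 to 88.5) and 704 (643 to 768) CPM. Of the 498 Eln UMIs of Tgfbr2-cKO leptomeningeal-like nuclei, 2 nuclei held 116 and 81, and 1 nucleus held 246 of 2066 in Ctrl, so no order of these 2 libraries is read from them. The ADWA11 ratios of Eln at 7 dpi were -4.70 (-4.79 to -4.60) in Spock3-led, -2.27 (-2.65 to -1.92) in Tnn-led, -4.26 (-5.03 to -3.58) in late-like, -4.20 (-4.52 to -3.89) in proliferating-like and -2.86 (-3.02 to -2.70) in leptomeningeal-like nuclei. In Slc47a2-led nuclei, low in Eln in Ctrl at 38.2 CPM, the ratio was 0.21 (-0.55 to 1.04). At 21 dpi Eln in late-like nuclei was at 647 (630.0 to 665) CPM in Ctrl and 36.7 (15.8 to 72.2) CPM under ADWA11, the latter from 8 UMIs in 30 nuclei. The ADWA11 ratios at 21 dpi were -4.14 (-5.35 to -3.16) in late-like, -1.28 (-1.74 to -0.85) in leptomeningeal-like, -0.81 (-1.48 to -0.19) in arachnoid-like, -0.58 (-0.90 to -0.26) in Tnn-led and -0.43 (-0.64 to -0.22) in Slc47a2-led nuclei. In Tnn-led nuclei of that ADWA11 library 2 nuclei, 1 of them called a doublet, held 47 and 27 of the 113 UMIs. Levels in Slc47a2-led nuclei of Ctrl (38.2 and 28.6 CPM) and in arachnoid-like nuclei of Ctrl at 21 dpi (20.3 CPM) were near or below those of T cells in the same libraries (137 and 20.6 CPM), so no difference is read there.

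**Figure D4:**
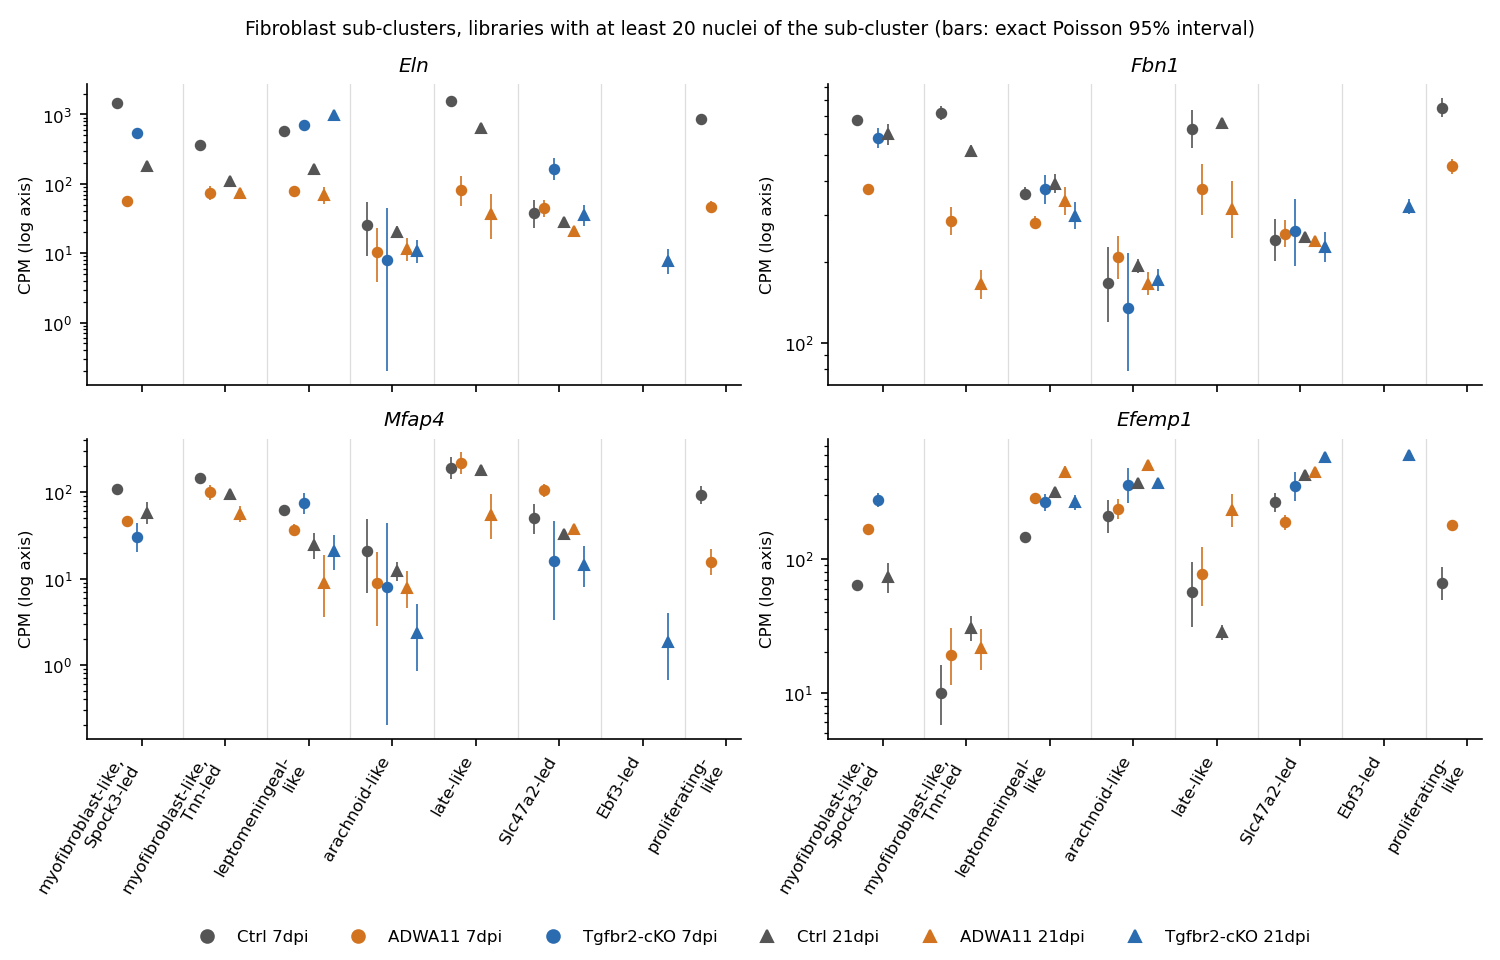
Levels of Eln, Fbn1, Mfap4 and Efemp1 (vertical axes, CPM on a log axis) in 8 fibroblast sub-clusters, 1 point per library with at least 20 nuclei of the sub-cluster and exact Poisson 95% intervals as bars. Circles are 7 dpi and triangles 21 dpi, and Eln in Spock3-led nuclei runs from 56.7 CPM under ADWA11 to 1471 CPM in Ctrl at 7 dpi.

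The other 5 members that differed in fibroblasts at 7 dpi did so in the same direction in the largest sub-cluster of that day. That sub-cluster is most of the fibroblasts of both libraries, so this adds no separate support. In Spock3-led nuclei 4 of 10 genes were lower and 2 higher under ADWA11, where 6.5% and 12.3% of 13476 genes were. Eln, for which the list was made, is in this count of lower genes. It is also in those given below for Tnn-led nuclei at 7 dpi and for leptomeningeal-like nuclei on both days. The log2 ratios were -0.86 (-0.91 to -0.81) for Fbn1, -1.22 (-1.36 to -1.08) for Mfap4, -1.23 (-1.42 to -1.03) for Fbln2, 0.80 (0.74 to 0.87) for Fbln1 and 1.40 (1.28 to 1.53) for Efemp1. Fbn2 was at 0.02 (-0.05 to 0.08), Emilin1 at -0.06 (-0.25 to 0.14), Fbln5 at -0.16 (-0.41 to 0.09) and Efemp2 at 0.12 (-0.12 to 0.37). Tnn-led nuclei showed the lowest Fbn1 ratios of any sub-cluster under ADWA11, -1.33 (-1.53 to -1.14) and then -1.64 (-1.84 to -1.45). There Fbln1 was not higher, at -0.54 (-0.88 to -0.21) and -0.20 (-0.43 to 0.03). Tnn-led nuclei had 2 lower and 0 higher members of 8 with enough UMIs at 7 dpi, against 7.6% and 9.83% of all genes, and 4 and 1 of 10 at 21 dpi, against 8.14% and 10.0%. In leptomeningeal-like nuclei at 7 dpi 2 genes, Eln and Mfap4, were lower and 1, Efemp1, was higher, against 5.78% and 7.75% of all genes. On the later day 2 of 9 were lower and 0 higher there, against 10.4% and 8.44%. Slc47a2-led nuclei were 2324 of 3121 ADWA11 fibroblasts at 21 dpi and had 0 lower and 2 higher members, against 4.1% and 9.24% of all genes, with Fbn1 at -0.05 (-0.11 to 0.02), Mfap4 at 0.16 (-0.01 to 0.33) and Efemp1 at 0.07 (0.02 to 0.12). The higher members there were Fbln2, at 2.05 (1.30 to 2.88), and Fbn2, at 0.83 (0.63 to 1.04). Late-like nuclei, the carriers of Eln in Ctrl on that day, were 30 under ADWA11. In them Fbn1 was at -1.06 (-1.43 to -0.72) and Mfap4 at -1.71 (-2.67 to -0.91), while Fbln1 was at 1.57 (1.17 to 1.94) and Efemp1 at 3.04 (2.57 to 3.48). Of the 9 members with enough UMIs there 6, Eln among them, were lower and 3 higher, with a median of -1.06. The share of all genes was not computed for late-like nuclei, so nothing is read from that count. Proliferating-like nuclei of ADWA11 at 7 dpi had Fbn1 at -0.72 (-0.87 to -0.57), Fbln2 at -1.61 (-2.03 to -1.20) and Mfap4 at -2.57 (-3.20 to -1.96), and Fbln1 at 0.77 and Efemp1 at 1.44. Efemp2 and Emilin1 were at 0.76 and 0.64 there. Arachnoid-like nuclei at 21 dpi were near Ctrl for Fbn1, at -0.22 (-0.39 to -0.05), and for Fbln1, at -0.01 (-0.16 to 0.14). The 9 members with enough UMIs there ran from -0.81 to 0.78. With sub-cluster shares held at those of Ctrl, the fibroblast ratios at 21 dpi were -0.62 for Fbn1 and -0.98 for Mfap4. These 2 values use 5 of 8 sub-clusters and give late-like nuclei their Ctrl weight from 30 ADWA11 nuclei. The part of sub-cluster make-up in the ratios was not tested.

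Tgfbr2-cKO libraries were set beside the same Ctrl libraries. At 7 dpi 2 of 10 genes (Eln and Mfap4) were lower and 2 (Efemp1 and Efemp2) higher in fibroblasts, where 8.12% of 12828 genes were lower and 13.6% higher. At 21 dpi 2 (Mfap4 and Emilin1) were lower and 2 (Fbn2 and Efemp1) higher, against 14.7% and 13.4% of 15005 genes. Counts of 2 of 10 genes are not far from these shares, so no selection of members is read from them. The medians of the 10 genes were -0.25 and -0.36, beside 0.08 and -0.02 over all genes. Eln was chosen against the same Ctrl libraries. Without it, as in the medians given for ADWA11, they were -0.22 and -0.48. The markers that named the fibroblasts were also low in these libraries, as given above, and their part in the result was not tested. Fibroblasts of these libraries differed in make-up too. At 21 dpi Tgfbr2-cKO had 4 Spock3-led, 0 Tnn-led and 0 late-like nuclei, and 318 arachnoid-like and 312 Ebf3-led nuclei made up most of its 890 fibroblasts. In Spock3-led nuclei at 7 dpi, present in both groups, 2 members were lower and 2 higher, against 11.8% and 13.2% of all genes, again not far from those shares. There the Tgfbr2-cKO ratios were -1.43 (-1.56 to -1.30) for Eln, -1.83 (-2.43 to -1.29) for Mfap4, -0.23 (-0.36 to -0.10) for Fbn1 and 2.14 (1.92 to 2.35) for Efemp1, where the Eln value rests largely on the 3 rich nuclei given above. Leptomeningeal-like nuclei had 0 lower and 3 higher members at 7 dpi, against 8.37% and 9.39%, and 4 and 2 at 21 dpi, against 11.5% and 8.58%. In these nuclei at 21 dpi Eln was at 997 (935 to 1062) CPM in Tgfbr2-cKO and 165 (145 to 187) CPM in Ctrl, but 4 male nuclei of Tgfbr2-cKO held 238, 144, 126 and 97 of its 967 UMIs, so here too no order is read, although Eln is 1 of the 2 higher members counted there. By sex it was at 2056 CPM in 51 male, 174 CPM in 85 female and 375 CPM in 13 unclear nuclei of Tgfbr2-cKO. The Ctrl library had 112 CPM in male and 97.2 CPM in female nuclei, and 530.4 CPM in 36 unclear nuclei, which held 116 of its 246 UMIs.

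Over whole libraries, without regard to cell type, the counts were higher in Tgfbr2-cKO, whose libraries held fewer fibroblasts. All 10 genes were lower in the Tgfbr2-cKO library at 7 dpi, in which 41.1% of all genes were lower and 26.1% higher. At 21 dpi 8 were lower and 0 higher, against 16.5% and 19.6%. Under ADWA11 4 were lower and 1 higher at 7 dpi, against 8.58% and 13.3%, and 4 and 0 at 21 dpi, against 17.8% and 12.6%. Eln, for which the list was made, is in both ADWA11 counts of lower genes. At this level fewer fibroblasts and less RNA per fibroblast cannot be told apart.

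Between 7 and 21 dpi in Ctrl, 4 of 10 genes were lower and 1 higher in fibroblasts, against 12.5% and 21.1% of 15351 genes. Eln, chosen by its values against these Ctrl libraries, is in this count of lower genes. Eln, Fbn2 and Fbln2 were lower by much, with log2 ratios of -2.40 (-2.44 to -2.36), -2.52 (-2.61 to -2.44) and -2.77 (-2.98 to -2.57), and Fbn1 by less, at -0.62 (-0.66 to -0.58). Efemp1 was higher, at 1.65 (1.56 to 1.73). The other 5 genes were within 1.5-fold, from -0.44 for Mfap4 to 0.22 for Emilin1. With sub-cluster shares held at those of 7 dpi, these calls changed for 5 genes. Fbn1 (-0.16), Fbn2 (-0.34) and Fbln2 (-0.39) were then within 1.5-fold, while Mfap4 (-0.87) and Fbln5 (0.64) were past it. Eln at -2.69 and Efemp1 at 0.71 stayed past 1.5-fold. Fbn2 in Spock3-led nuclei was 303 CPM at 7 dpi and 299 CPM at 21 dpi, while those nuclei went from 1074 to 84.

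In vessel cells the Eln ratio under ADWA11 was negative at 7 dpi, as in fibroblasts, and positive at 21 dpi. In mural nuclei Eln was at 241 (200.1 to 287) CPM in Ctrl, 51.0 (31.5 to 77.9) CPM under ADWA11 and 0 CPM (0 of 114870 UMIs) in Tgfbr2-cKO at 7 dpi. At 21 dpi it was at 352 (305 to 405), 448 (384 to 519) and 53.6 CPM. The log2 ratio under ADWA11 was -2.24 (-2.98 to -1.56) at 7 dpi, resting on 21 UMIs in 64 nuclei, and 0.35 (0.04 to 0.65) at 21 dpi. In Tgfbr2-cKO, with 0 UMIs at 7 dpi, its exact upper limit was -2.88 on that day, and it was -2.72 (-3.58 to -1.96) at 21 dpi. The kinds of mural nuclei differed as well. Of the 465 nuclei 301 lay in an unnamed sub-cluster whose leading genes included Cdh5, an endothelial gene. Pericyte-like nuclei, which carried 0 Eln UMIs in both Tgfbr2-cKO libraries, were 28 of 37 mural nuclei in Tgfbr2-cKO at 7 dpi and 6 of 78 in Ctrl, and smooth-muscle-like nuclei, the main makers of elastin in arteries, were 0 and 7. Smooth-muscle-like nuclei at 21 dpi had 471 (355 to 613) CPM in 25 Ctrl nuclei and 760.2 (635 to 903) CPM in 32 ADWA11 nuclei. The unnamed mural sub-cluster had the opposite order on that day, at 369 (311 to 435) CPM in 100 Ctrl nuclei and 214 (157 to 286) CPM in 49 ADWA11 nuclei. Of the other members only Fbn1 had enough mural UMIs in all 4 comparisons with Ctrl, at 0.19 (-0.17 to 0.54) and 0.34 (-0.05 to 0.72) under ADWA11 and -3.42 (-5.71 to -1.84) and -1.62 (-2.38 to -0.93) in Tgfbr2-cKO. Fbn2 had enough at 7 dpi, at 0.75 (0.30 to 1.21) under ADWA11, past 1.5-fold and opposite in sign to Eln. In Tgfbr2-cKO, which had 0 Fbn2 UMIs, the exact upper limit of its ratio was -2.08.

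In endothelial nuclei, which line the vessels, Eln was at 223 (202 to 245) CPM in Ctrl and 57.0 (45.7 to 70.2) CPM under ADWA11 at 7 dpi, lower under the antibody. At 21 dpi the order was opposite, with 244 (227 to 262) CPM in Ctrl and 459 (430.0 to 488) CPM under ADWA11. Fbln5 followed the same course in these nuclei, at 93.1 (79.8 to 108) and 20.1 (13.6 to 28.5) CPM at 7 dpi and 76.7 (67.4 to 86.9) and 156 (139.7 to 174) CPM at 21 dpi. The Tgfbr2-cKO values were 382 (301 to 479) and 179.9 (149 to 216) CPM for Eln, from 37 and 131 nuclei. Of all endothelial nuclei 18.2% were called doublets and were kept, and their part in these values was not tested. These values stand on unequal backgrounds. In Ctrl and ADWA11 at 7 dpi T cells had 137 and 0 CPM and myeloid nuclei 29.2 and 1.69 CPM, and how much of the mural and endothelial difference on that day this makes was not tested. At 21 dpi T cells had 20.6 and 2.70 CPM and myeloid nuclei 9.22 and 2.00 CPM.

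The genes that serve the fibre were taken as further lists. Of 17 microfibril and assembly genes 16 had enough UMIs, and under ADWA11 6 were lower and 2 higher at 7 dpi (median log2 ratio -0.43, with 5.91% and 12.5% of all genes) and 4 and 1 at 21 dpi (-0.24, with 5.82% and 8.36%). In Tgfbr2-cKO 7 were lower and 2 higher at 7 dpi (-0.41, with 8.12% and 13.6%) and 9 and 4 at 21 dpi (-0.67, with 14.7% and 13.4%). Ltbp1, which ties latent TGFβ to microfibrils, was lower in every comparison with Ctrl, at -1.09 (-1.16 to -1.03) and -1.66 (-1.78 to -1.54) under ADWA11 and -0.73 (-0.89 to -0.57) and -1.47 (-1.66 to -1.29) in Tgfbr2-cKO. Adamts17, a protease of microfibril biology, was at -1.11 and -0.90 under ADWA11 and -2.16 and -4.70 in Tgfbr2-cKO. Biglycan, a small proteoglycan encoded by Bgn, was at -1.14 and -0.56 and at -1.19 and -1.94. Thsd4, whose product promotes fibrillin assembly, was opposite at 7 dpi, at 1.12 under ADWA11 and 1.011 in Tgfbr2-cKO, and at -0.40 and 0.95 at 21 dpi. Adamtsl2, whose product binds fibrillin and latent TGFβ binding proteins, was singled out after its values were seen. It had 45 UMIs in Ctrl and 6 under ADWA11 at 7 dpi (-3.53 (-5.05 to -2.30)), and 59 and 2 at 21 dpi (-4.50 (-7.58 to -2.58)), beside -0.19 (-1.89 to 1.13) and 0.65 (-0.11 to 1.37) in Tgfbr2-cKO.

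Of 5 crosslinking enzymes 4 had enough UMIs. Loxl1, the lysyl oxidase most tied to elastin, was at a log2 ratio of -1.26 (-1.34 to -1.19) under ADWA11 at 7 dpi but at -0.35 (-0.42 to -0.28), under 1.5-fold, at 21 dpi. In Tgfbr2-cKO it was lower on both days, at -1.08 and -1.60. The list counts were 1, 0, 1 and 2 lower genes in the order ADWA11 at 7 and 21 dpi and Tgfbr2-cKO at 7 and 21 dpi, with none higher, where the shares of all genes lower were 5.91%, 5.82%, 8.12% and 14.7%. Proteases that can cut elastin were mixed, with 1 lower and 1 higher of 6 under ADWA11 at 7 dpi and 0 and 1 at 21 dpi. In Tgfbr2-cKO 1 of 5 was lower and 0 higher at 7 dpi, and 2 of 6 were lower and 1 higher at 21 dpi. The shares over all genes given for the preceding lists hold for these comparisons too. Mmp12, the macrophage elastase, was at 0.86 (0.53 to 1.21) and 0.47 (0.25 to 0.70) under ADWA11 in fibroblast nuclei, and the share of this that is free RNA from myeloid cells was not tested. Mmp14, a membrane-bound protease, was at -0.41 and 0.12. In Tgfbr2-cKO Mmp14 was at -1.02 and -0.66, and Mmp12 was at -2.68 at 21 dpi, the lowest protease of the list.

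Fibrillar collagens, the other main fibres of the lesion, were measured for comparison. Of 11 genes 10 had enough UMIs, and 5, 3, 6 and 7 were lower in the same order of comparisons, with medians of -0.52, -0.39, -0.89 and -1.78. The shares of all genes lower were 5.91%, 5.82%, 8.12% and 14.7%, and 1, 1, 2 and 2 collagens were higher, beside 12.5%, 8.36%, 13.6% and 13.4%. The higher genes, named after their values were seen, were Col5a3 and Col24a1, the latter at 2.63 (2.48 to 2.78) under ADWA11 at 21 dpi. By their median, collagen genes lay lowest in Tgfbr2-cKO at 21 dpi, where Col1a1 was at -2.74, Col1a2 at -2.66, Col3a1 at -1.86 and Col5a2 at -1.69. Under ADWA11 at 7 dpi the same 4 were at -0.86, -0.61, -0.21 and -0.13, and at 21 dpi at -0.26, -0.38, -0.34 and -0.39. Col1a1, Col1a2 and Col3a1 are also among the markers that named the fibroblasts.

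**Figure D5:**
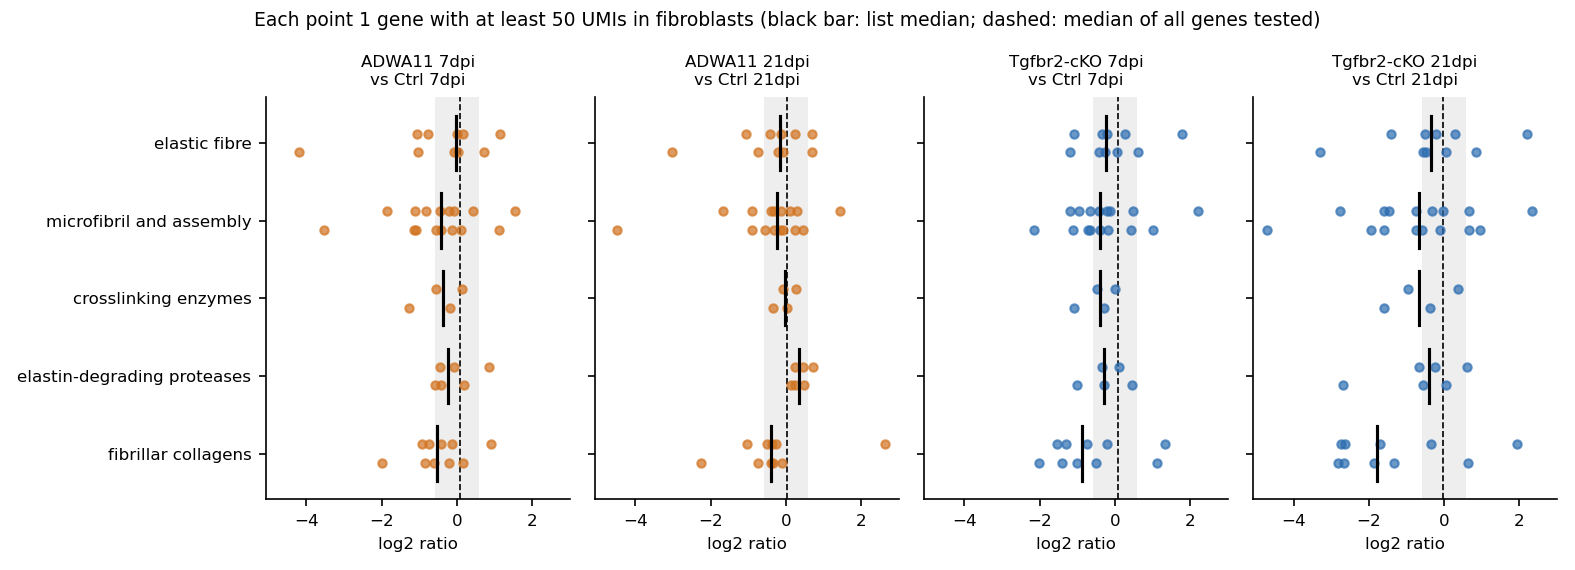
Log2 ratio of CPM in fibroblasts (horizontal axes) for each gene with at least 50 UMIs of 5 lists (rows) in 4 comparisons of 2 libraries (panels). Black bars are list medians, dashed lines the median of all genes tested and grey the range under 1.5-fold, and the median of fibrillar collagens is -1.78 in Tgfbr2-cKO at 21 dpi.

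The genes whose levels were most like those of Eln were sought over 83 units of cell type or fibroblast sub-cluster and library with at least 50 nuclei, by Pearson correlation of log2(CPM + 1) over 14953 genes. The units share libraries and free RNA, so the correlations are a description. The 5 highest were Mxra7 (0.787), Erg (0.777), Nox4 (0.764), Igfbp7 (0.761) and Jag1 (0.760). Of the fibre genes Fbn1 came closest, at 0.716 and rank 17, then Fbln5 (0.697, rank 27), Mfap4 (0.668, rank 55) and Fbln2 (0.668, rank 56). Emilin1 was at 0.546, Fbln1 at 0.541, Efemp2 at 0.506 and Fbn2 at 0.415, and Efemp1 was least like Eln of the 10, at 0.362 and rank 1670.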

How the data were processed

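Nuclei of PT lesions were sorted by their DNA stain, sequenced with 10x 3′ v3.1 chemistry and counted by the authors with Cell Ranger against mm10 (version 7.1.0 per the labels, 7.2.0 per the file headers). The deposited values were raw UMI counts per gene and barcode, 1 filtered matrix per library. Barcodes in the lowest or highest 2.5% of UMIs or genes of their library, or the highest 2.5% of mitochondrial share, were left out, which left 61917 of 67360. Counts were normalised with sctransform 0.4.2 in Seurat 5.3.0 (R 4.3.3), on 3000 variable genes and 30 principal components, at resolution 0.5 for all nuclei and 0.2 for sub-clusters. The 10 genes and the list genes were kept out of the variable genes, and markers too in sub-clusters. A cluster was named where at least 3 markers were detected in 5% of nuclei and raised 2-fold, unless markers of another class led its top 10 genes. These naming rules were set after the clusters were seen. Doublets were scored from 2 simulated doublets per nucleus at 0.8% per 1000 barcodes, and 6568 were called. Fibroblast sub-clusters with over 20% called doublets (2475 nuclei of low UMIs with glial genes, and doublet clusters of over 50%) and 227 osteoblast-like nuclei were left out after the clusters were seen, and called doublets in other sub-clusters were kept.

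CPM are sums over nuclei of a type per 1e6 of their non-mitochondrial UMIs, given for at least 20 nuclei. Intervals of levels are exact Poisson, of ratios exact conditional binomial and of shares Clopper-Pearson limits (scipy 1.17.1), all at 95%. With 1 library per group no p-value was computed. Nuclei were called male or female from sex-linked transcripts. The interval and ratio functions were tested on simulated counts. The 10 genes, the lists and the comparisons were chosen with earlier results of these data known. Of the further lists, genes with a log2 ratio of at least 1 in size in any comparison with Ctrl were named, at most 4 per list by UMIs in Ctrl fibroblasts. Of the genes with at least 1000 UMIs over the units, the 5 most like Eln were named. Alternatives were TMM factors (edgeR 4.0.16, used for these factors only), log-normalised clustering, other thresholds, each sex, fixed sub-cluster shares and several sets of nuclei.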

Additional observations from a re-analysis of the deposited data

How the results depend on the processing

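No paired analysis was possible because each group was 1 library, and for the same reason no replicate could be left out. Of the values for Eln, medians and counts, 163 were the same under the alternatives, 44 moved by more than counting error or 1.5 times and 3 reversed. Of those for single genes 422 were the same, 114 moved and 5 reversed. The causes of these moves were not tested. Keeping the mixed sub-cluster or the osteoblast-like nuclei were alternatives added after seeing the data. Fbln2, Fbln5, Efemp2 and all mural values rest on low counts. Fixed shares use the sub-clusters with enough nuclei in both libraries, 3 of 8 for Tgfbr2-cKO at 21 dpi. Leaving out the 5 richest nuclei removes 5 of 330 and 890 Tgfbr2-cKO fibroblasts but 5 of 1962 and 4471 of Ctrl, so it lowers Tgfbr2-cKO ratios by construction, and nothing is read from those values.

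The Eln ratio under ADWA11 at 7 dpi was -4.29 in female and -3.97 in male nuclei, -4.01 as a mean per nucleus and -4.28 without the 5 richest nuclei. At 21 dpi it was -2.74 with fixed sub-cluster shares, -2.59 as a mean per nucleus, -3.14 without called doublets and -3.20 without the 5 richest nuclei. For Ctrl at 21 against 7 dpi it was -2.47 with TMM factors, -2.69 with fixed shares, -2.34 in male nuclei, -2.49 as a mean and -2.45 without the 5 richest. For Tgfbr2-cKO at 7 dpi it was -1.21 with TMM factors, -0.82 in female and -1.31 in male nuclei, -0.86 as a mean and -1.88 without the 5 richest. At 21 dpi it was 1.46 with fixed shares and 0.57 in male nuclei, both reversed, -2.57 in female nuclei and -1.61 without the 5 richest.

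The share of all genes was not computed under the alternatives, so the following counts have no background and nothing is read from them. Counts of higher genes under ADWA11 at 21 dpi were 0 at a fold of 2, with fixed shares or in female nuclei, and at 7 dpi 1 at a fold of 2 or in female nuclei. In Ctrl over time fixed shares gave 2 higher and 2 lower genes. In Tgfbr2-cKO at 21 dpi 1 was higher at a fold of 2 or in female nuclei, and 5 were lower in male nuclei and 6 without the 5 richest. At 7 dpi 1 was higher with TMM factors, at a fold of 2, in female nuclei, with the mixed sub-cluster or without the 5 richest, and 5 were lower without the 5 richest. The median of the 10 genes was -0.38 in female nuclei under ADWA11 at 21 dpi and -0.18 as a mean per nucleus at 7 dpi. In Ctrl over time it was -0.056 with fixed shares and -0.51 as a mean. In Tgfbr2-cKO it was -0.16 with fixed shares and -0.65 without the 5 richest at 21 dpi, and 0.053, reversed, in male nuclei and -0.53 without the 5 richest at 7 dpi.

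Single ratios that reversed were Efemp2 in Tgfbr2-cKO at 21 dpi (-0.21 with fixed shares), Fbln2 under ADWA11 at 21 dpi (0.28 with fixed shares) and in Tgfbr2-cKO at 21 dpi (0.10 in female nuclei), Fbln5 in Ctrl over time (0.64 with fixed shares) and Fbn2 under ADWA11 at 21 dpi (0.14 in male nuclei).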
